A study of Mus musculus with 9 samples.

Results

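The collagen family outside the cartilage collagens was examined in mammary tumors of BRCA-deficient mice. Members were the genes whose mouse symbol reads Col, a number, a and a number, without the cartilage genes *Col2a1*, *Col9a1*, *Col9a2*, *Col9a3* and *Col11a2*. The rule found 39 of the 35275 genes listed, with 9 in the fibrillar class, 8 in the basement membrane class and 22 in other classes, and left out 5 cartilage collagens. It kept *Col11a1*, a chain of the same collagen type as the omitted *Col11a2*, in the fibrillar class. All 9 tumors came from mice of the genotype Brca1Co/Co;MMTV-Cre;p53+/-, so the saline mice carry the same changes: 1 copy of *p53* is missing, and Cre from the MMTV promoter, which is active in mammary epithelium, removes part of *Brca1* there. There were 3 tumors in each of the groups sequenced: saline, free Talazoparib given intravenously (i.v. TLZ) and Talazoparib carried in the bilayer of a nano-liposome (NanoTLZ). Talazoparib inhibits the DNA repair enzyme PARP, and both forms were injected at 0.33 mg/kg for 5 doses on a schedule of 3 per week, begun at a tumor size of 4 to 5 mm. Tumors of this model are described as arising at 24 to 32 weeks on average, and the age of the sequenced mice is not given in the sources used here. No sequenced group had empty liposomes or the solvent of the free drug alone, so drug and carrier cannot be told apart.

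Collagens are proteins of the extracellular matrix in which chains wind into a triple helix. Fibrillar collagens such as types I, III and V build the tensile fibrils of connective tissue, type IV forms the sheet of the basement membrane on which epithelium and endothelium sit, and other types bind to fibrils, form beaded microfibrils or span membranes. In mammary tumors, fibrillar collagen is made mainly by stromal fibroblasts, whereas epithelial, endothelial and stromal cells all contribute to basement membranes.

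Total counts on genes ranged from 17538380 to 21194980 per tumor, with a median of 19747343. Collagens took 0.694% of the counts in saline tumor 3, the lowest share, and 1.37% in i.v. TLZ tumor 1, the highest. Levels in a tumor are given as CPM, the share of a gene in the TMM-scaled total counts of the tumor on the usual parts-per-million scale. Where genes are compared with each other, CPM per kb of annotated exon is given instead. Log2 fold changes, their standard errors (SE) and 95% intervals come from edgeR's quasi-likelihood fit to all 9 tumors, with p-values adjusted over the 15821 genes that passed its filter on low counts. The tumors of a group are described as coming from separate mice, although the labels do not name the mouse of each, and p-values measure the spread between these tumors. Both treated groups were compared with the same 3 saline tumors.

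Saline tumor 3 stood apart from the rest. Across the tested genes, which are not independent replicates, its mean Spearman correlation with the other 8 tumors was 0.867, against 0.916 to 0.947 for the others. The basal keratin gene *Krt5* had 1849 CPM in this tumor and at most 72.9 in any other, whereas *Krt14*, another basal keratin gene, had 802 CPM there and 122 to 2584 in the others. Medians over the collagens and their classes are therefore also given without it, and so are the counts of several gene lists. A log2 fold change printed for a gene with both treatments is also given without it where it moved by over 1.5 times or turned its sign. Named genes given by CPM alone have no such value in their passages, although some moved as much. Examples are *Krt5* (-5.39, or 1.90 without saline tumor 3) and *Bmp1* (0.63, or 0.19).

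The collagen RNA of these tumors was shared by few genes. By mean CPM the leading 5 members, *Col4a1*, *Col1a1*, *Col4a2*, *Col18a1* and *Col1a2*, held 57.2% of the mean collagen CPM, and the top 10 held 78.4%. Per kb of exon, *Col4a1* had the highest mean level over 9 tumors with 185 CPM per kb, followed by *Col1a1* with 173, *Col4a2* with 167 and *Col18a1* with 148. The order differed between groups: by the group mean per kb, *Col4a1* led in saline with 231, *Col1a1* after i.v. TLZ with 242 and *Col18a1* after NanoTLZ with 178. In each of these means 1 tumor was far above the other 2, namely saline tumor 1, i.v. TLZ tumor 1 and NanoTLZ tumor 2, so the order of the leading genes rests on single tumors. At the other end, 7 members did not pass the filter and were not tested. Of these, *Col26a1* had 224 counts in saline tumor 3 and at most 9 in any other, *Col6a4* had 47 in NanoTLZ tumor 2 and at most 8 elsewhere, and *Col22a1* had 13 in saline tumor 3 and at most 2 elsewhere. *Col4a3* reached 19 counts in i.v. TLZ tumor 2, and *Col6a5*, *Col6a6* and *Col19a1* did not exceed 5 in any tumor. The other 32 members were tested: all 9 fibrillar, 7 of the 8 basement membrane and 16 of the 22 other members.

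Summed over each class, the basement membrane collagens were the largest share, with a mean of 44.6% of collagen CPM over the 9 tumors, against 29.9% for fibrillar and 25.5% for other members. Fibrillar collagens summed to 2589, 1714 and 2094 CPM in saline tumors 1 to 3, to 6727, 1579 and 2829 after i.v. TLZ and to 3748, 3075 and 2050 after NanoTLZ. The groups overlapped, since i.v. TLZ tumor 1 held the highest and i.v. TLZ tumor 2 the lowest fibrillar sum of all. In i.v. TLZ tumor 1, fibrillar members took 48.98% of the collagen CPM. Basement membrane collagens summed to 6596, 3901 and 2647 CPM in saline, 3691, 3014 and 4984 after i.v. TLZ and 4027, 4531 and 3885 after NanoTLZ. Here the saline tumors held both the highest and the lowest sum, and the treated tumors lay between them. The other members summed to 2449, 1769 and 2005 CPM in saline, 3315, 2601 and 2467 after i.v. TLZ and 2770, 1822 and 1986 after NanoTLZ. All 3 i.v. TLZ sums were above the 3 saline sums of this class, by a narrow margin for i.v. TLZ tumor 3, and the NanoTLZ sums overlapped with saline. These sums were not tested. In tumor RNA, fewer cells of a type and less RNA per cell cannot be told apart.

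**Figure D1:**
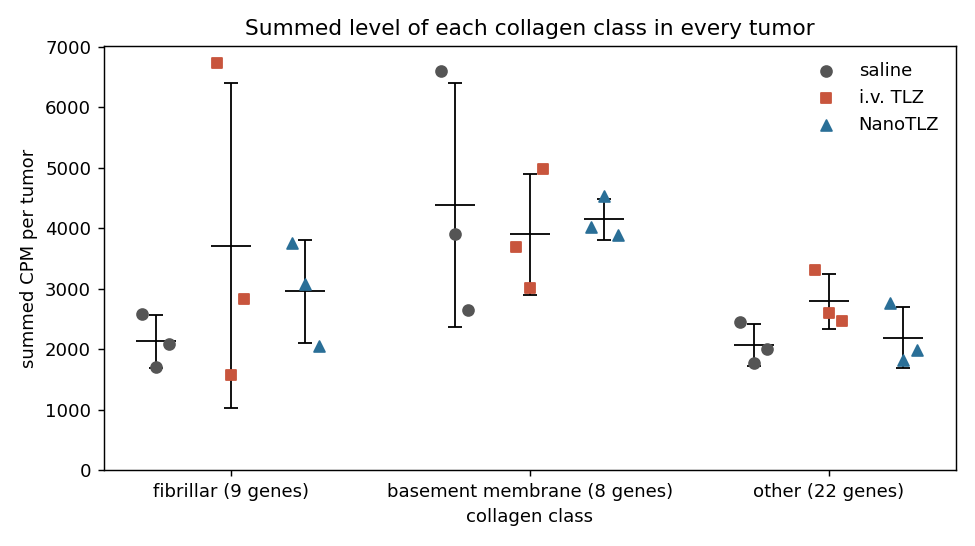
Summed CPM (vertical axis) of the fibrillar, basement membrane and other collagen classes (horizontal axis) in each of 3 saline, 3 i.v. TLZ and 3 NanoTLZ tumors, 1 point per tumor, with the group mean as a wide line and SD as error bars. The fibrillar sum ran from 1579 to 6727 CPM within the i.v. TLZ group alone.

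Type I collagen is the main fibril of connective tissue and is assembled from the chains of *Col1a1* and *Col1a2*. *Col1a1* had 1003, 682 and 494 CPM in saline tumors 1 to 3, 3049, 446 and 1276 after i.v. TLZ and 1435, 1130 and 729 after NanoTLZ. *Col1a2* had 629, 452 and 438 CPM in saline, 1771, 306 and 720 after i.v. TLZ and 1057, 711 and 524 after NanoTLZ. For both chains, i.v. TLZ tumor 1 was the highest and i.v. TLZ tumor 2 the lowest of all 9, so the treated tumors reached past the saline tumors on either side. With both treatments against saline, the log2 fold change was 0.86 for *Col1a1* (SE 0.55, 95% interval -0.35 to 2.08, edgeR adjusted p = 0.510). For *Col1a2* it was 0.74 (SE 0.50, interval -0.37 to 1.85, edgeR adjusted p = 0.535). Without i.v. TLZ tumor 1, these values were 0.42 and 0.31. *Col3a1*, whose chain forms the type III fibrils that often run with type I, had 327, 194 and 394 CPM in saline, 949, 132 and 291 after i.v. TLZ and 446, 377 and 276 after NanoTLZ. Its extremes were again i.v. TLZ tumors 1 and 2, and the log2 fold change of 0.42 (SE 0.54, interval -0.77 to 1.62) became -0.13 without i.v. TLZ tumor 1 and 0.67 without saline tumor 3.

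Type V collagen is a minor fibrillar collagen that is built into type I fibrils and limits their width. *Col5a1* encodes its main chain, *Col5a2* the usual partner, and *Col5a3* a chain found in fewer tissues. *Col5a1* (ENSMUSG00000026837, GRCm38 chr2:27886425-28039514) had 104, 75.96 and 89.3 CPM in saline, 274, 165 and 155 after i.v. TLZ and 205, 223 and 133 after NanoTLZ. The 6 treated tumors were higher than any saline tumor, with group means of 89.6 ± 13.8 CPM (SD, n = 3) for saline, 198 ± 65.8 for i.v. TLZ and 187 ± 47.9 for NanoTLZ. Against saline, its log2 fold change was 1.14 with i.v. TLZ (SE 0.32, edgeR adjusted p = 0.417), 1.06 with NanoTLZ (SE 0.32, edgeR adjusted p = 0.552) and 1.10 with both treatments (SE 0.29, 95% interval 0.46 to 1.74, unadjusted p = 0.00331, edgeR adjusted p = 0.279). On the opposite strand, 2 annotated noncoding genes overlap *Col5a1*, with 45 and 65 counts in all tumors together. *Col5a3* (ENSMUSG00000004098, chr9:20770050-20815067) had 38.7, 63.8 and 62.1 CPM in saline, 109, 179 and 85.2 after i.v. TLZ and 80.8, 165 and 79.8 after NanoTLZ. Again the 6 treated tumors lay above the 3 saline tumors, although the gap between saline tumor 2 and NanoTLZ tumor 3 was small. With both treatments the log2 fold change of *Col5a3* was 1.08 (SE 0.36, interval 0.29 to 1.88, unadjusted p = 0.0127, edgeR adjusted p = 0.289). *Col5a2* (ENSMUSG00000026042) differed from the other 2 chains, with 159, 174 and 159.9 CPM in saline, 466, 70.6 and 178 after i.v. TLZ and 356, 292 and 133 after NanoTLZ. Its saline tumors lay close together, and the treated tumors were on both sides of them, with a log2 fold change of 0.60 (SE 0.52, interval -0.57 to 1.77) that was 0.13 without i.v. TLZ tumor 1. Thus i.v. TLZ tumor 2, which was lowest for *Col5a2* as it was for *Col1a1*, *Col1a2* and *Col3a1*, was highest for *Col5a3*.

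Type VI collagen forms beaded microfibrils at the border of cells and matrix from the chains of *Col6a1*, *Col6a2* and *Col6a3*. *Col6a1* (ENSMUSG00000001119, chr10:76708792-76726168) had 157, 174 and 173 CPM in saline, 579, 405 and 347 after i.v. TLZ and 495, 274 and 315 after NanoTLZ. All 6 treated tumors exceeded the 3 saline tumors, which were close to each other at 168 ± 9.30 CPM (SD, n = 3), against 444 ± 121 for i.v. TLZ and 361 ± 118 for NanoTLZ. Its log2 fold change against saline was 1.40 with i.v. TLZ (SE 0.32, edgeR adjusted p = 0.398), 1.11 with NanoTLZ (SE 0.32, edgeR adjusted p = 0.552) and 1.25 with both treatments (SE 0.29, 95% interval 0.61 to 1.90, unadjusted p = 0.00152, edgeR adjusted p = 0.271). No annotated gene overlaps *Col6a1* or *Col6a2*. *Col6a2* (ENSMUSG00000020241, chr10:76595762-76623630) had 115, 105 and 177 CPM in saline, 339, 198 and 225 after i.v. TLZ and 252, 199 and 209 after NanoTLZ. Saline tumor 3 was the highest of its group and still below all treated tumors. With both treatments the log2 fold change of *Col6a2* was 0.84 (SE 0.28, interval 0.22 to 1.46, unadjusted p = 0.0129, edgeR adjusted p = 0.289). *Col6a3* (ENSMUSG00000048126, chr1:90765923-90843971), on another chromosome, had 115, 105 and 166 CPM in saline, 165, 77.4 and 204 after i.v. TLZ and 144, 108 and 91.9 after NanoTLZ. Its groups overlapped throughout, and its log2 fold change was 0.02 (SE 0.32, interval -0.70 to 0.74, edgeR adjusted p = 0.985), or 0.27 without saline tumor 3. That interval reaches above the lower bounds for *Col6a1* and *Col6a2*, and the difference between the chains was not tested.

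**Figure D2:**
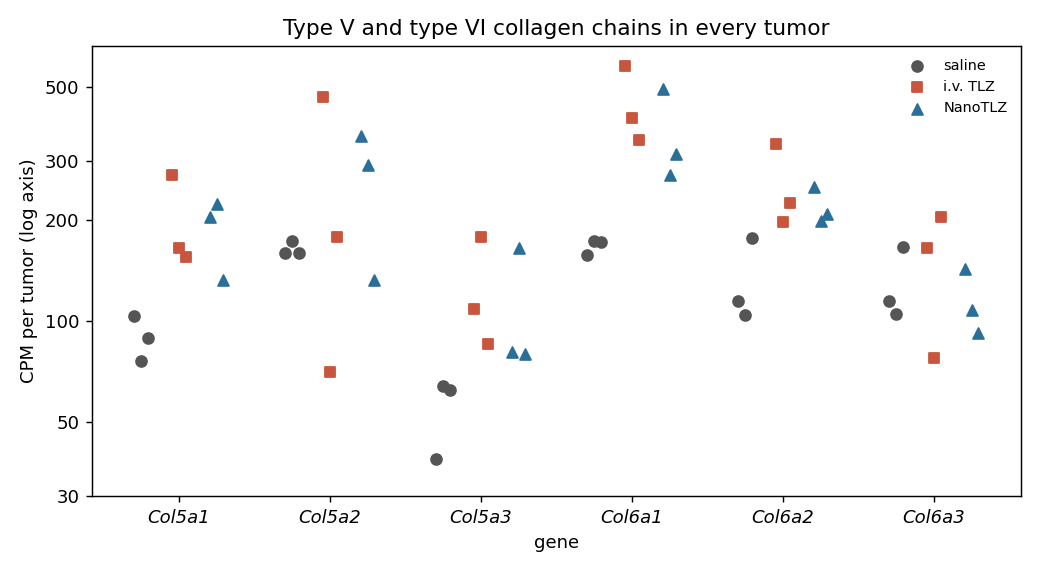
CPM (vertical log axis) of the type V chains *Col5a1*, *Col5a2* and *Col5a3* and the type VI chains *Col6a1*, *Col6a2* and *Col6a3* (horizontal axis), 1 point per tumor. For *Col5a1*, *Col5a3*, *Col6a1* and *Col6a2* the 6 treated tumors lie above the 3 saline tumors, whereas for *Col5a2* and *Col6a3* the groups overlap.

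Among the 32 tested members, these 4 were the ones in which the lowest of 6 treated tumors exceeded the highest saline tumor, and for 0 members the treated tumors were all below. Over all 15821 tested genes, 2.81% lay above in this way and 2.66% below. Without saline tumor 3, the log2 fold change with both treatments was 1.12 for *Col5a1*, 1.2 for *Col5a3*, 1.29 for *Col6a1* and 1.13 for *Col6a2*. The range over fits that each left out 1 of the 9 tumors was 0.95 to 1.24 for *Col5a1*, 0.89 to 1.21 for *Col5a3*, 1.11 to 1.36 for *Col6a1* and 0.70 to 1.13 for *Col6a2*. Both neighbours *Col6a1* and *Col6a2* lie on the minus strand of chromosome 10, 85161 bases apart, with 0 annotated coding genes between them.

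Promoters of these 4 genes are shown because their transcripts were higher in every treated tumor, and that of *Col6a3* because its chain joins the type VI chains without sharing the pattern. Each line holds the 120 bases before the annotated start, 5′ to 3′ on the strand of the gene, taken from RefSeq promoter windows of GRCm38.p6, which were found for 32 of the 39 members. The positions are chr10:76726169-76726288 for *Col6a1*, chr10:76623631-76623750 for *Col6a2*, chr1:90843972-90844091 for *Col6a3*, chr9:20815068-20815187 for *Col5a3*, all on the minus strand, and chr2:27886305-27886424 on the plus strand for *Col5a1*. They lie outside annotated genes, except that of *Col5a1*, which falls in the noncoding gene *2810430I11Rik* on the opposite strand. Capitals mark a GC box (GGGCGG on either strand).
Col6a1: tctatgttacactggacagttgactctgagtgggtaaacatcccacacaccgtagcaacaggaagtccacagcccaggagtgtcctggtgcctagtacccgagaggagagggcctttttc
Col6a2: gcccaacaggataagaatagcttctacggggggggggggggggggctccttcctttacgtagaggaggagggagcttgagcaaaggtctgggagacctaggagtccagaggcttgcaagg
Col6a3: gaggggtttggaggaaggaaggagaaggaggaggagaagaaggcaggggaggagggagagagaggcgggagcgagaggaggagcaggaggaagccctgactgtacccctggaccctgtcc
Col5a1: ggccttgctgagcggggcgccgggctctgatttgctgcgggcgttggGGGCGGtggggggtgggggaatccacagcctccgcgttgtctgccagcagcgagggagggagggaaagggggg
Col5a3: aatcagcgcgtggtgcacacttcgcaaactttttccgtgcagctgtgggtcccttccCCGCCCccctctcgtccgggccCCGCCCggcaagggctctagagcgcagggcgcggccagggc

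The motifs searched on both strands were the TATA box TATAAA, the CCAAT box CCAAT and the GC box GGGCGG. The type VI windows held none of the 3, *Col5a1* held 1 GC box and *Col5a3* held 2. In the 120 bases before the RefSeq start of all 32851 promoter windows, TATAAA was in 6.34%, CCAAT in 21.3% and GGGCGG in 26.5%. Content of G and C was 72.5% for *Col5a1* and 70% for *Col5a3*, above the median of 54.2% over all windows, and 53.3%, 60% and 63.3% for *Col6a1*, *Col6a2* and *Col6a3*. Only these letters were searched, and a match does not show that a factor binds.

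Type IV collagen, the network of the basement membrane, is mostly made of the chains of *Col4a1* and *Col4a2*, which start next to each other on chromosome 8 and are read in opposite directions. *Col4a1* (ENSMUSG00000031502) had 3082, 1118 and 966 CPM in saline, 1152, 830.5 and 1810 after i.v. TLZ and 1291, 1113 and 1064 after NanoTLZ. *Col4a2* (ENSMUSG00000031503) had 2177, 827 and 690.2 CPM in saline, 1084, 744 and 1390 after i.v. TLZ and 979, 1014 and 1060 after NanoTLZ. Saline tumor 1 was the highest for both genes, and saline tumor 3 was the lowest of all for *Col4a2*, while the remaining saline values lay among the treated ones. With both treatments the log2 fold change was -0.51 for *Col4a1* (SE 0.41, interval -1.43 to 0.41) and -0.24 for *Col4a2* (SE 0.39, interval -1.11 to 0.64). Without saline tumor 1 both turned positive, at 0.23 and 0.48, and without saline tumor 3 they were -0.77 and -0.50. Their annotated 5′ starts overlap by 22 bases, and whether the counting used strand was not given. *Col18a1*, which encodes a basement membrane collagen that carries heparan sulfate and is the source of endostatin, had 780.1, 1425 and 547 CPM in saline, 912, 648 and 1261 after i.v. TLZ and 1083, 1887 and 781 after NanoTLZ. Its highest tumor was NanoTLZ tumor 2 and its lowest saline tumor 3, and the log2 fold change of 0.24 (SE 0.41, interval -0.67 to 1.16) was -0.0075 without saline tumor 3. *Col18a1* overlaps the transporter gene *Slc19a1* on the opposite strand, which had 5191 counts over all tumors against 181598 for *Col18a1*. The remaining tested members of this class, *Col4a4*, *Col4a5*, *Col4a6* and *Col15a1*, had log2 fold changes with both treatments of 0.18 to 0.56, the lowest being *Col4a5*, which was at 0.04 without saline tumor 3.

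Among the other members, *Col16a1* had the highest level with 87.0 CPM per kb of exon, with *Col6a1* at 74.1 and *Col8a1* at 57.4. Per kb of the longest coding transcript, *Col16a1* again led with 113, and *Col8a1* at 88.0 was above *Col6a1* at 79.1. *Col16a1*, a fibril-associated collagen, had 565, 826 and 631 CPM in saline, 411, 999 and 534 after i.v. TLZ and 404, 381 and 532 after NanoTLZ. The 3 NanoTLZ tumors lay below the 3 saline tumors, and i.v. TLZ tumor 2 was the highest of all. How many of all tested genes separated NanoTLZ from saline in this way was not counted, so nothing is read from it. With NanoTLZ its log2 fold change was -0.62 (SE 0.38, interval -1.45 to 0.22). *Col8a1*, a chain of the short type VIII network collagen known from vessel walls and corneal basement membrane, had 959, 164 and 66.1 CPM in saline, 509, 556 and 572 after i.v. TLZ and 609.6, 249.8 and 361 after NanoTLZ. Saline tumors 1 and 3 were its highest and lowest, whereas the i.v. TLZ tumors were close to each other at 546 ± 32.6 CPM (SD, n = 3). The log2 fold change with both treatments was 0.25 (SE 0.68, interval -1.27 to 1.77), and it was -0.23 without saline tumor 3 and 2.05 without saline tumor 1. Its partner *Col8a2* had 14.99, 5.86 and 44.3 CPM in saline, 36.8, 16.2 and 13.5 after i.v. TLZ and 31.5, 10.4 and 47.4 after NanoTLZ. These groups overlapped, and the log2 fold change was 0.24 (SE 0.65, interval -1.203 to 1.69), or 1.33 without saline tumor 3.

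A few members were high in 1 or 2 tumors only. *Col28a1*, which is known from peripheral nerve, had 43.1, 2.15 and 0.963 CPM in saline, 1.79, 5.30 and 0.595 after i.v. TLZ and 1.59, 0.273 and 0.880 after NanoTLZ. Saline tumor 1 alone was high and the other saline tumors lay among the treated ones. Its log2 fold change was -4.06 with NanoTLZ (SE 1.43, unadjusted p = 0.0178, edgeR adjusted p = 0.552) and -3.32 with both treatments (SE 1.07, unadjusted p = 0.0111, edgeR adjusted p = 0.288). Without saline tumor 1, these values were -0.73 and 0.0011. *Col17a1*, a membrane-spanning collagen of the hemidesmosomes of basal epithelial cells, had 314.5 CPM in saline tumor 3, 79.9 in i.v. TLZ tumor 3 and between 1.86 and 17.5 in the other 7 tumors. Those 2 tumors were also the highest for *Krt5*, with 1849 and 72.9 CPM, against 2.30 to 11.7 elsewhere. Other basal markers had other orders: *Krt14* was highest in i.v. TLZ tumor 1 with 2584 CPM, and *Trp63* was highest in saline tumor 3 with 131 CPM and next in NanoTLZ tumor 3 with 28.5. The log2 fold change of *Col17a1* with both treatments was -2.55 (SE 1.21, interval -5.23 to 0.14), and without saline tumor 3 it was 1.7. This gene was singled out after its values were seen. The tested members not described above ranged in log2 fold change with both treatments from -0.87 for *Col11a1* to 2.11 for *Col24a1*, and in each the treated tumors overlapped with saline. Without saline tumor 3, *Col11a1* was at -0.34.

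**Figure D3:**
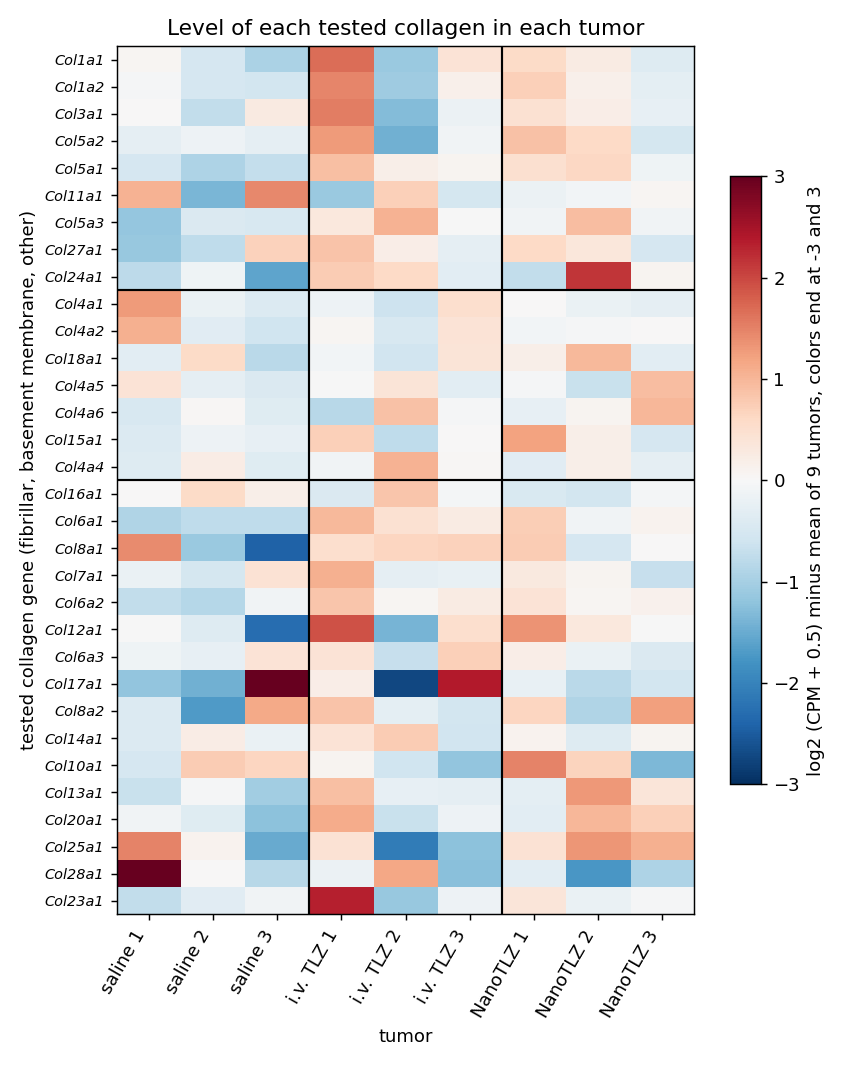
Level of the 32 tested collagen genes (rows, by class and from high to low CPM per kb) in each of 9 tumors (columns), as log2 of CPM plus 0.5 minus the mean of the gene over the tumors, shown by color. *Col28a1* is high in saline tumor 1 and *Col17a1* in saline tumor 3 and i.v. TLZ tumor 3, and 24 of the 32 genes were above their own mean in i.v. TLZ tumor 1.

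With i.v. TLZ against saline, edgeR called 0 members at an adjusted p under 0.05, as it called 0% of all tested genes. At an unadjusted p under 0.05 there were 4 members higher, *Col6a1*, *Col5a1*, *Col6a2* and *Col5a3*, and 0 lower, where 4.91% of all genes were higher and 5.47% lower. Over all genes this was 777 higher and 866 lower, and 897 and 730 with upper quartile scaling. Of the 9 edgeR fits that each left out 1 tumor, *Col6a1* and *Col5a1* passed this threshold in 9, *Col6a2* in 8 and *Col5a3* in 7. The fits without a NanoTLZ tumor are among these 9, although they kept all 6 tumors of this comparison. DESeq2 on all 9 tumors called 1 member, *Col6a1* (log2 fold change 1.40, DESeq2 adjusted p = 0.0192), and 1.12% of all genes. DESeq2 on the 6 tumors compared called 0 members and 0.534% of all genes. Over the alternatives, the adjusted p of *Col6a1* in this comparison ranged from 0.0192 to 0.7795. The median log2 fold change was 0.44 over the tested members and -0.03 over all tested genes, and 24 of 32 members (75%) were positive against 47.6% of all genes. Without i.v. TLZ tumor 1, the tumor with the highest collagen share, the median was 0.11, and without saline tumor 3 it was 0.58.

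With NanoTLZ against saline, edgeR again called 0 members, where it called 0.00632% of all genes, the single gene being the cartilage collagen *Col2a1*. At an unadjusted p under 0.05, the same 4 members, *Col6a1*, *Col5a1*, *Col5a3* and *Col6a2*, were higher and 1, *Col28a1*, was lower, where 3.51% of all genes were higher and 5.49% lower. Over all genes this was 555 higher and 868 lower, and 698 and 618 with upper quartile scaling. When 1 tumor at a time was left out, *Col6a1* and *Col5a1* passed in all 9 edgeR fits, *Col5a3* in 7, *Col28a1* in 6 and *Col6a2* in 5, and *Col5a3* was at 0.58 without NanoTLZ tumor 2. The fits without an i.v. TLZ tumor are among these 9, although they kept all 6 tumors of this comparison. DESeq2 called 0 members on all 9 tumors, with 0.566% of all genes called, and 0 members on the 6 tumors compared, with 1.01% called. The median was 0.45 over the tested members and -0.09 over all genes, and 24 members were positive (75% against 43.9% of all genes). The median was 0.32 without NanoTLZ tumor 1 and 0.53 without saline tumor 3.

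With the mean of both treatments against saline, 0 members were called by edgeR and 0.019% of all genes. The smallest adjusted p of a member was 0.271, for *Col6a1*. At an unadjusted p under 0.05 there were 4 members higher and 1 lower, the 5 genes named for NanoTLZ, where 4.8% of all genes were higher and 8.29% lower. The split over all genes was 760 higher and 1312 lower, and 930 and 1024 with upper quartile scaling. In the fits without 1 tumor, *Col6a1* and *Col5a1* passed in all 9, and *Col5a3*, *Col6a2* and *Col28a1* in 8. DESeq2 on all 9 tumors called 2 members, *Col6a1* (adjusted p = 0.00939) and *Col5a1* (adjusted p = 0.0441), and 1.71% of all genes. Adjusted p over the alternatives ranged from 0.00939 to 0.487 for *Col6a1* and from 0.0441 to 0.487 for *Col5a1*. The median was 0.45 over the tested members, 0.74 over the fibrillar, 0.24 over the basement membrane and 0.24 over the other members, against -0.06 over all genes. Of the fibrillar members 8 of 9 were positive, of the basement membrane members 5 of 7 and of the other members 11 of 16. The median over the tested members was 0.23 without i.v. TLZ tumor 1 and 0.59 without saline tumor 3. Without saline tumor 3 the class medians were 0.67 for fibrillar, 0.04 for basement membrane (4 of 7 positive) and 0.62 for other members (11 of 16), against 0.03 over all genes. Class medians were not computed without i.v. TLZ tumor 1. In that fit the fibrillar members *Col1a1*, *Col1a2*, *Col5a2* and *Col3a1* fell to 0.42, 0.31, 0.13 and -0.13, while *Col5a1* was at 0.95.

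**Figure D4:**
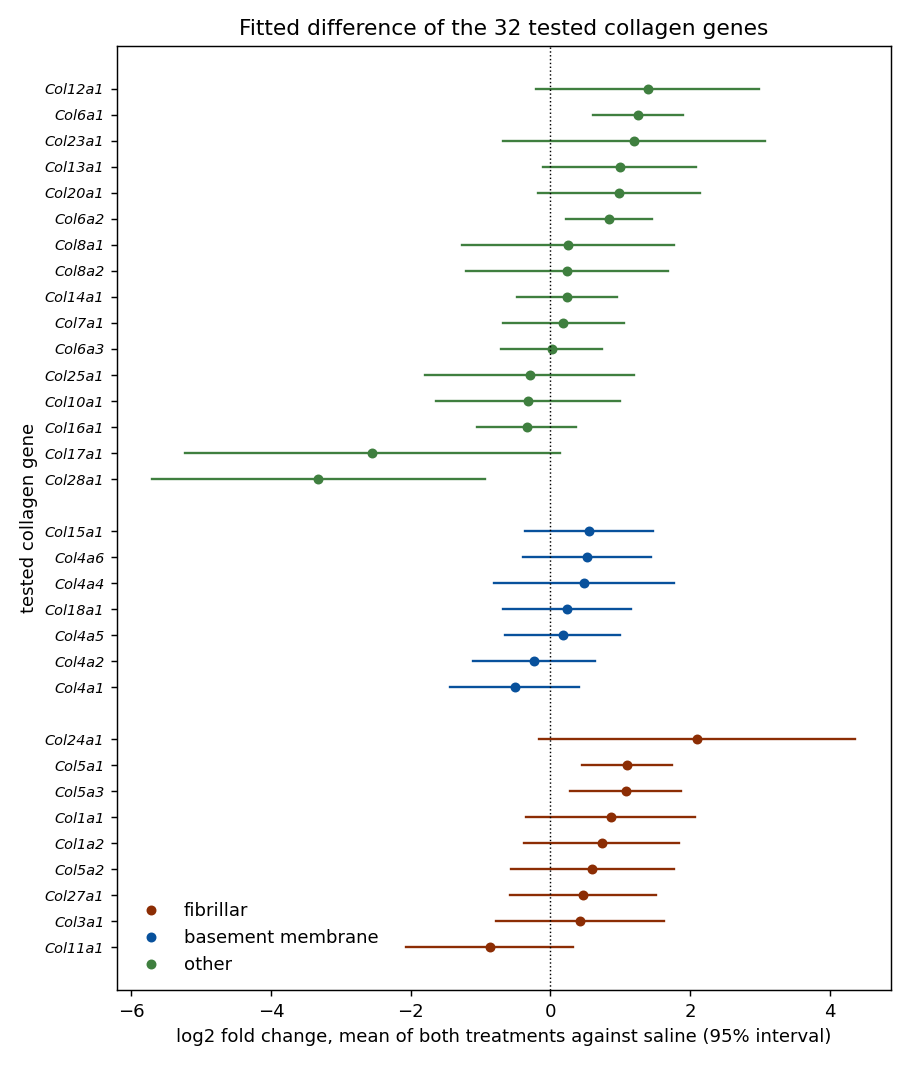
Log2 fold change with its 95% interval (horizontal axis) of the 32 tested collagen genes (vertical axis), for the mean of both treatments against saline, from edgeR's fit to all 9 tumors and colored by class. The intervals of *Col5a1*, *Col5a3*, *Col6a1* and *Col6a2* lie above 0, that of *Col28a1* lies below 0, and no gene passed adjustment over all genes.

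NanoTLZ and i.v. TLZ tumors, which differ in the form of the drug, were also compared with each other. This comparison called 0 members with edgeR and 0% of all genes, and at an unadjusted p under 0.05 it gave 0 members higher and 0 lower, where 0.449% and 1.23% of all genes passed. DESeq2 called 0 members on all 9 tumors, with 0.0119% of all genes called, and 0 members on the 6 tumors compared, with 0.0705% called. The median log2 difference was -0.16 over the tested members and -0.04 over all genes, and 12 of 32 members were positive (37.5% against 45.6% of all genes). Without i.v. TLZ tumor 1 the median was 0.22. For the members that were higher after both treatments, the difference was -0.08 for *Col5a1* (95% interval -0.79 to 0.62), -0.19 for *Col5a3* (interval -1.07 to 0.68), -0.30 for *Col6a1* (interval -1.002 to 0.41) and -0.21 for *Col6a2* (interval -0.90 to 0.48). Differences of either sign within these intervals are possible, so the data do not show that the formulations act alike.

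Chains that assemble into 1 molecule are known to need each other in set proportions, and the ratio of their CPM was therefore followed from tumor to tumor. There were 496 pairs of tested members, and the median SD of their log2 ratio over 9 tumors was 1.02. The smallest SD of all pairs belonged to *Col4a1* and *Col4a2* (0.19) and the next to *Col1a1* and *Col1a2* (0.20), each a pair of chains of 1 collagen type. *Col6a1* with *Col6a2* came next, level at 0.32 with the pairs *Col1a2* with *Col5a2* and *Col5a1* with *Col6a2*, whose members belong to different types. *Col1a1* to *Col1a2* was 1.60, 1.51 and 1.13 in saline, 1.72, 1.46 and 1.77 after i.v. TLZ and 1.36, 1.59 and 1.39 after NanoTLZ, although the level of *Col1a1* itself ran over a 6.84-fold range. Per length of annotated exon the mean ratio was 2.84 ± 0.374 (SD, n = 9). With the length of the longest coding transcript, chosen after seeing the data, it was 1.36 ± 0.178, so its size depends on the length taken for each gene.

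*Col4a1* to *Col4a2* was 1.42, 1.35 and 1.40 in saline, 1.06, 1.12 and 1.302 after i.v. TLZ and 1.32, 1.10 and 1.003 after NanoTLZ. The treated tumors were all below the saline tumors, by a narrow margin for i.v. TLZ tumor 3 and NanoTLZ tumor 1, while the level of either gene overlapped between groups. *Col6a1* to *Col6a3* was 1.37, 1.65 and 1.04 in saline, 3.51, 5.23 and 1.70 after i.v. TLZ and 3.45, 2.53 and 3.43 after NanoTLZ. *Col6a2* to *Col6a3* was 1, 0.994 and 1.06 in saline, 2.05, 2.56 and 1.10 after i.v. TLZ and 1.76, 1.84 and 2.28 after NanoTLZ. In both type VI ratios the 6 treated tumors exceeded the saline tumors, with i.v. TLZ tumor 3 close to them. Ratios that separated the 6 treated from the 3 saline tumors were found in 3 of the 8 chain pairs compared here, and in 2.82% of all 496 pairs. The type V pairs with *Col5a3*, although it was tested, were not among these 8. Both type VI ratios are over *Col6a3*, and *Col6a1* and *Col6a2* varied together and each separated the groups by itself. These ratios are thus not independent of each other or of the levels given above, and the 2 shares were not compared by a test. The *Col6a1* to *Col6a2* ratio ranged from 0.978 to 2.05 and overlapped between groups.

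The remaining pairs varied more than those of *Col4a1* with *Col4a2* and *Col1a1* with *Col1a2*. *Col5a1* to *Col5a2* ran from 0.437 in saline tumor 2 to 2.34 in i.v. TLZ tumor 2 (SD of the log2 ratio 0.71), and the X-linked neighbours *Col4a5* and *Col4a6* from 0.596 to 1.89 (SD 0.57). *Col8a1* to *Col8a2* had a larger SD than the median pair, 1.62, with a ratio of 1.49 in saline tumor 3 and 63.96 in saline tumor 1. In these pairs saline and treated tumors overlapped. For *Col4a3* and *Col4a4* no ratio was computed, since *Col4a3* was not tested.

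**Figure D5:**
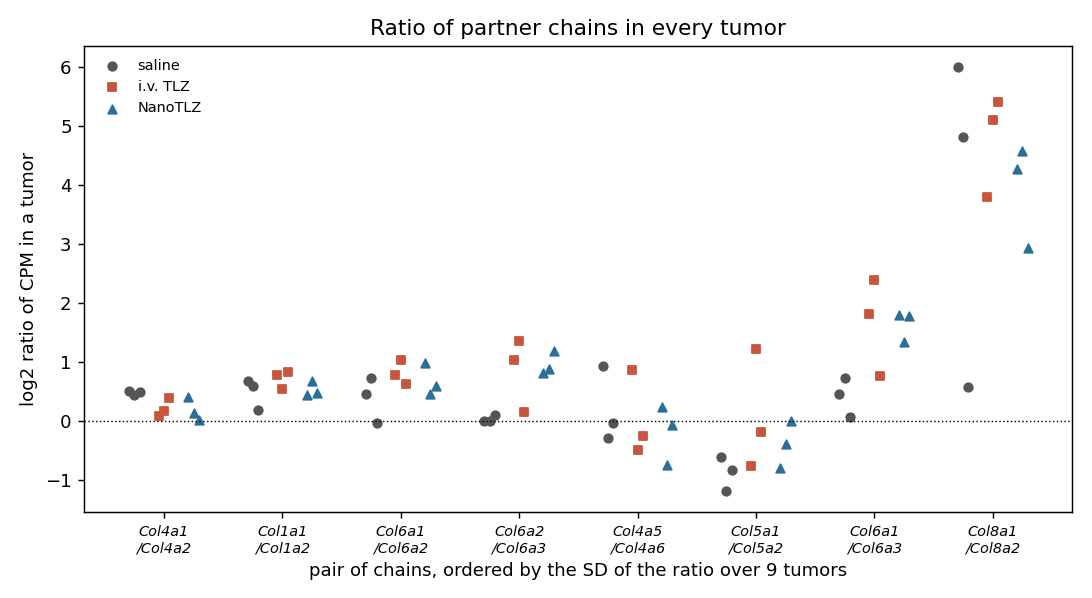
Log2 ratio of CPM (vertical axis) for 8 pairs of partner chains (horizontal axis, from the smallest to the largest SD over 9 tumors), 1 point per tumor. The *Col4a1* to *Col4a2* and *Col1a1* to *Col1a2* ratios vary little, and the *Col6a1* to *Col6a3* and *Col6a2* to *Col6a3* ratios are higher in all 6 treated than in the 3 saline tumors.

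Before a collagen can be laid down, its chains are hydroxylated and folded in the endoplasmic reticulum. Of 21 genes of chain modification and folding, all tested, 15 were higher and 6 lower with both treatments, with a median log2 fold change of 0.12. Here and in the lists below, higher and lower give only the sign of the log2 fold change, which was positive for 46.0% of all tested genes. In the fit without saline tumor 3 it was positive for 8214 of 15802 tested genes. With i.v. TLZ alone 16 were higher and 5 lower (median 0.44), and with NanoTLZ alone 10 were higher and 11 lower (median -0.04). Leaving out saline tumor 3 gave 14 higher and 7 lower with both treatments (median 0.26). The most abundant by CPM, *P4hb*, which encodes a subunit of prolyl 4-hydroxylase, had 1831, 1666 and 595 CPM in saline, 1072, 1805 and 2030 after i.v. TLZ and 1202, 1391 and 1401 after NanoTLZ. Of the 21 genes, 2 had an unadjusted edgeR p under 0.05 with both treatments, where 13.1% of all tested genes did, and both are for the catalytic subunit of that enzyme. *P4ha2* had 44.5, 21.7 and 11.2 CPM in saline, 165, 86.2 and 85.4 after i.v. TLZ and 74.7, 43.2 and 78.9 after NanoTLZ (log2 fold change 1.74, SE 0.46, edgeR adjusted p = 0.279). *P4ha3* had 4.52, 5.91 and 2.20 CPM in saline, 20.8, 21.7 and 9.90 after i.v. TLZ and 12.3, 9.11 and 9.31 after NanoTLZ (log2 fold change 1.67, SE 0.43, edgeR adjusted p = 0.277). For *P4ha3* the 6 treated tumors were higher than the saline tumors, whereas NanoTLZ tumor 2 was below saline tumor 1 for *P4ha2*.

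Outside the cell, the propeptides are removed and the fibrils are cross-linked. Of 13 genes with these tasks 12 were tested, 9 higher and 3 lower, with a median of 0.49, or 8 and 4 with 0.32 without saline tumor 3. The procollagen C-proteinase gene *Bmp1* was the most abundant, with 273, 313 and 49.8 CPM in saline, 391, 382 and 197 after i.v. TLZ and 404, 293 and 306 after NanoTLZ. *Pcolce*, the enhancer of that proteinase, had 20.5, 30.6 and 66.8 CPM in saline, 149, 462 and 34.3 after i.v. TLZ and 116, 87.98 and 142 after NanoTLZ (log2 fold change 2.002, SE 0.72, edgeR adjusted p = 0.307). Of the treated tumors, i.v. TLZ tumor 3 alone lay within the saline range. The lysyl oxidase gene *Loxl2* had 49.1, 37.3 and 22.4 CPM in saline, 60.8, 136 and 68.0 after i.v. TLZ and 88.2, 46.2 and 68.2 after NanoTLZ (log2 fold change 1.09, SE 0.38, edgeR adjusted p = 0.295). For *Loxl2* the groups overlapped, since NanoTLZ tumor 2 was below saline tumor 1. *Adamts3*, a procollagen N-proteinase, was high in saline tumor 3 with 25.6 CPM, had 0.801 and 6.39 in saline tumors 1 and 2, and was between 0.379 and 4.86 in the treated tumors. Its log2 fold change was -2.68 (SE 0.84, edgeR adjusted p = 0.284), or -1.06 without saline tumor 3.

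Of 9 collagen receptor genes 6 were higher and 3 lower, with a median of 0.27 (0.35 with i.v. TLZ and 0.05 with NanoTLZ). When saline tumor 3 was left out, 4 were higher and 5 lower, with a median of -0.07. The integrin chain gene *Itgb1* was the most abundant, with 1509, 707 and 361 CPM in saline, 905, 1470 and 917 after i.v. TLZ and 1043, 759 and 863 after NanoTLZ. *Mrc2*, the receptor that takes up collagen fragments, had 38.5, 45.4 and 62.2 CPM in saline, 139, 393 and 49.5 after i.v. TLZ and 93.2, 95.6 and 90.4 after NanoTLZ (log2 fold change 1.46, SE 0.54, edgeR adjusted p = 0.317). For *Mrc2* as for *Pcolce*, i.v. TLZ tumor 2 was highest and i.v. TLZ tumor 3 lay within the saline range.

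Of 16 genes for matrix proteins that bind fibrils 11 were higher and 5 lower, with a median of 0.85, and 0 were called by edgeR. At an unadjusted p under 0.05 there were 3 higher and 0 lower, where 4.8% and 8.29% of all genes were. Fibronectin, *Fn1*, was the most abundant, with 2422, 2317 and 732 CPM in saline, 2310, 9705 and 2630 after i.v. TLZ and 2028, 2296 and 1706 after NanoTLZ. *Sparc*, a collagen-binding matrix protein, had 476, 593 and 824 CPM in saline, 1399, 2441 and 639 after i.v. TLZ and 1069, 904 and 971 after NanoTLZ (log2 fold change 0.94, SE 0.41, edgeR adjusted p = 0.371). For *Fn1* and *Sparc*, i.v. TLZ tumor 2 was the highest, the tumor that had the lowest *Col1a1*, *Col1a2* and *Col3a1*. *Fbln2*, which encodes fibulin-2, had 195, 385 and 395 CPM in saline, 918, 1941 and 463 after i.v. TLZ and 631, 438 and 429 after NanoTLZ (log2 fold change 1.19, SE 0.46, edgeR adjusted p = 0.338). The small proteoglycan decorin, *Dcn*, had 18.5, 21.02 and 16.2 CPM in saline, 49.7, 30.3 and 127 after i.v. TLZ and 21.4, 155 and 30.6 after NanoTLZ (log2 fold change 1.90, SE 0.69, edgeR adjusted p = 0.313). *Fbln2* and *Dcn* were above all saline tumors in all 6 treated tumors, NanoTLZ tumor 1 narrowly so for *Dcn*.

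Of 16 basement membrane partners of type IV 11 were higher and 5 lower, with a median of 0.50, or 12 and 4 with 0.30 without saline tumor 3. The heparan sulfate proteoglycan gene *Agrn* was the most abundant, with 1089, 934 and 259.5 CPM in saline, 1230, 1206 and 1205 after i.v. TLZ and 1130, 596 and 1168 after NanoTLZ. The laminin chain gene *Lama1* had 128 CPM in saline tumor 3 and between 0.541 and 4.99 in the other 8 tumors, with a log2 fold change of -4.49 (SE 1.27, edgeR adjusted p = 0.284). That value rests on saline tumor 3, without which it was 0.62.

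Markers of the cells that make or lack collagens were read in the same tumors, and their part in the collagen levels was not tested. Epithelial markers were present in all 9 tumors. *Krt8*, a luminal keratin, was the most abundant of 9 by CPM, with 2623, 1059 and 955 CPM in saline, 1158, 1608 and 1821 after i.v. TLZ and 1360, 1318 and 738 after NanoTLZ. *Epcam*, an epithelial adhesion protein, was between 604 and 1368 CPM. The epithelial markers summed to 8655, 4630 and 5720 CPM in saline, 6381, 6208 and 5348 after i.v. TLZ and 5407, 5277 and 3790 after NanoTLZ, and 2 of the 9 were higher and 7 lower with both treatments. Fibroblast markers summed to 93.0, 128 and 122 CPM in saline, 272, 105 and 90.1 after i.v. TLZ and 174, 205 and 162 after NanoTLZ. The 3 NanoTLZ sums were above the 3 saline sums, and the i.v. TLZ sums lay on both sides of them. The highest sum was in i.v. TLZ tumor 1, which was also highest for type I and type III collagen, and the lowest in i.v. TLZ tumor 3, while i.v. TLZ tumor 2 was lowest for those collagens. Of the 10 fibroblast markers 9 were tested, 8 higher and 1 lower, with *Thy1* the most abundant at 32.4, 59.9 and 62.1 CPM in saline, 121, 31.3 and 45.6 after i.v. TLZ and 66.1, 74.2 and 47.4 after NanoTLZ. *Pdgfra*, a receptor of fibroblasts, had 22.8, 17.01 and 15.2 CPM in saline, 44.3, 31.2 and 14.6 after i.v. TLZ and 33.1, 57.8 and 55.1 after NanoTLZ (log2 fold change 1.06, SE 0.37, edgeR adjusted p = 0.307). None of the fibroblast markers was at or below 3 counts in every tumor.

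Pericyte and smooth muscle markers summed to 358, 425 and 709 CPM in saline, 482, 336 and 401 after i.v. TLZ and 455, 438 and 395 after NanoTLZ, with 4 of 9 higher and 5 lower, or 5 and 4 without saline tumor 3. The most abundant was *Notch3*, between 77.9 and 135 CPM in all tumors. *Des*, the intermediate filament of muscle cells, had 4.52, 22.02 and 45.2 CPM in saline and between 1.37 and 8.46 in the treated tumors (log2 fold change -2.13, SE 0.65, edgeR adjusted p = 0.284, and -1.27 without saline tumor 3). The saline tumors had the same order for *Des* as for the skeletal muscle sums given below, and which cells made it was not tested. *Abcc9*, a channel subunit of pericytes, had 22.3, 24.7 and 19.2 CPM in saline and between 10.8 and 15.2 in the treated tumors, which were all lower (log2 fold change -0.72, SE 0.25, edgeR adjusted p = 0.295). Endothelial markers summed to 151, 205 and 84.3 CPM in saline, 242.5, 114 and 109.9 after i.v. TLZ and 221, 271 and 202 after NanoTLZ. All 9 of them had a positive log2 fold change with both treatments, with a median of 0.36. With NanoTLZ alone all 9 were positive (median 0.62), and with i.v. TLZ alone 6 were positive and 3 negative (median 0.16). Without saline tumor 3, 7 were positive and 2, *Pecam1* and *Cdh5*, negative with both treatments (median 0.12). *Vwf* was the most abundant, at 4.36 CPM in saline tumor 3 and 18.2 to 64.8 in the others, and *Egfl7* ranged from 7.27 to 14.5 CPM in saline and from 11.04 to 31.5 in treated tumors (log2 fold change 0.92, SE 0.38, edgeR adjusted p = 0.358).

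Skeletal muscle markers had sums of 31.1, 199 and 734 CPM in saline, 31.7, 3.23 and 12.5 after i.v. TLZ and 16.5, 8.30 and 9.42 after NanoTLZ. Of the 9 markers 8 were tested and all 8 were lower with both treatments, 7 of them at an unadjusted edgeR p under 0.05, where 8.29% of all genes were lower, while *Tnnc2* had at most 3 counts in every tumor. *Acta1*, the most abundant, had 5.21, 68.7 and 231 CPM in saline and at most 0.466 in a treated tumor. *Myh4* had 6.01, 45.9 and 213 CPM in saline and at most 0.216 in a treated tumor, and *Myl1* had 3.03, 8.39 and 36.5 CPM in saline and at most 0.193 in a treated tumor (edgeR adjusted p = 0.0207 for each). Saline tumors 2 and 3 thus had more of these muscle transcripts than any other tumor, while saline tumor 1 and i.v. TLZ tumor 1 had similar sums. Of the sum in i.v. TLZ tumor 1, 27.5 CPM came from *Tnni2*, and each of the other 7 tested markers was higher in saline tumor 1 than in i.v. TLZ tumor 1. Without saline tumor 2 the log2 fold change with both treatments was 1.28 for *Col6a1* and 0.70 for *Col6a2*, and without saline tumor 3 it was 1.29 and 1.13. In either fit the saline tumors kept still had more *Myh4* and *Myl1* than any treated tumor. The part of muscle tissue in the type VI levels was therefore not tested.

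Cartilage markers summed to 687, 1075 and 826 CPM in saline, 761, 1416 and 875 after i.v. TLZ and 1071, 1662 and 1801 after NanoTLZ. Of these 12 genes 10 were tested, 5 higher and 5 lower, and *Matn1* had at most 3 counts in every tumor. By the mean over all 9 tumors, *Col2a1* was the most abundant. It had 9.38, 14.3 and 21.3 CPM in saline, 191, 176 and 141 after i.v. TLZ and 298, 628 and 799 after NanoTLZ (log2 fold change with both treatments 4.38, SE 0.45, edgeR adjusted p = 0.0207). Its saline mean of 15.0 CPM was below that of *Col9a2* (231), and its i.v. TLZ mean of 169 was below that of *Sox9* (245). *Acan*, the cartilage proteoglycan, had 0.401, 12.5 and 1.84 CPM in saline, 62.9, 275 and 5.36 after i.v. TLZ and 151, 136 and 159 after NanoTLZ (log2 fold change 4.72, SE 1.34, edgeR adjusted p = 0.284). *Hapln1*, a link protein, had 10.01 CPM in saline tumor 1 and at most 0.673 in any other tumor (log2 fold change -3.96, SE 1.18, edgeR adjusted p = 0.284). The cartilage genes thus had no common direction.

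Immune markers summed to 233, 518 and 140 CPM in saline, 536, 210.1 and 416 after i.v. TLZ and 561, 471 and 669 after NanoTLZ, and all 6 had a positive log2 fold change with both treatments (6 with NanoTLZ alone and 5 with i.v. TLZ alone). Without saline tumor 3, *Ptprc*, the general marker of white blood cells, was negative at -0.37 and the other 5 were positive. *Csf1r*, the macrophage receptor, was the most abundant, at 81.7 to 328 CPM in saline and 137 to 422 in treated tumors, and the B cell gene *Cd79a* had 0.0953 to 0.275 CPM in saline and 0.437 to 4.04 in treated tumors (log2 fold change 3.16, SE 0.88, edgeR adjusted p = 0.282). Adipocyte markers were low, with sums of 22.7, 31.4 and 55.3 CPM in saline, 55.6, 13.5 and 36.4 after i.v. TLZ and 157, 40.3 and 23.8 after NanoTLZ, and 4 of the 8 were tested, 3 higher and 1 lower with both treatments (4 higher with NanoTLZ alone, 2 higher and 2 lower with i.v. TLZ alone). Their most abundant gene was *Lpl*, between 6.83 and 80.1 CPM. Schwann cell markers summed to 780.3, 443 and 1244 CPM in saline, 384, 868 and 613 after i.v. TLZ and 439, 581 and 533 after NanoTLZ, with 2 of 5 higher and 3 lower, or 3 and 2 without saline tumor 3. *Sox10*, the most abundant of them, was between 316 and 1060 CPM, and it is also made in mammary epithelium. In none of these 3 lists was a marker at or below 3 counts in every tumor.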

How the data were processed

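RNA of 9 mammary tumors, 3 per group by their labels, was sequenced. The counts used are those the authors deposited for each gene, not normalized. The submitters' processing notes name TopHat2, mm10 and DESeq2. The counting program, annotation release and strand setting are not given in the sources used here. Total counts per tumor were 17538380 to 21194980, and low levels carry counting error. Symbols, positions and exon lengths came from GENCODE M21 (GRCm38), in which 34490 of 35275 identifiers were found and 785 were not.

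Genes were filtered with filterByExpr (minimum count 10, minimum total count 15), scaled by TMM and tested with glmQLFit and glmQLFTest in edgeR 4.0.16 under R 4.3.3, with 1 coefficient per group, after a check on simulated data. Calls needed a Benjamini-Hochberg adjusted p under 0.05. Alternatives were DESeq2 1.42.0, RLE and upper quartile scaling, scaling without collagens, other count filters, fits to the compared groups and leaving out each tumor. The ratio of *Col1a1* to *Col1a2* by coding transcript length was added after seeing the data. Summaries and figures were made with matplotlib 3.10.9, scipy 1.17.1, pandas 2.3.3 and numpy 2.4.6 under Python 3.11.15.

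Values in every tumor are given for the 3 members per class with the highest CPM per kb, members at an unadjusted p under 0.05 against saline (at most 4 higher and 4 lower) and their chain partners. From each gene list, the most abundant gene and up to 3 genes with the smallest such p for both treatments were named. The members and lists were chosen with earlier results of these data known.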

Additional observations from a re-analysis of the deposited data

How the results depend on the processing

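With DESeq2 fitted to all 9 tumors, 1 collagen was called for i.v. TLZ and 2 for both treatments, where edgeR called 0, and the cause was not tested. Every other alternative called 0 collagens in each comparison. The median log2 fold change of the tested collagens kept its sign in all alternatives for the comparisons with saline. Leaving out each of the 9 tumors in turn gave medians from 0.11 to 0.66 with i.v. TLZ, 0.32 to 0.59 with NanoTLZ, 0.23 to 0.59 with both treatments and -0.27 to 0.22 between the treatments. The lowest i.v. TLZ value and the positive last value came without i.v. TLZ tumor 1. Among the collagens followed through the alternatives, changes of sign came only from leaving out 1 tumor. With both treatments, these fits ranged from -0.0075 to 0.71 for *Col18a1*, -3.87 to 0.0011 for *Col28a1*, -0.13 to 0.67 for *Col3a1*, -0.77 to 0.23 for *Col4a1*, -0.50 to 0.48 for *Col4a2*, -0.11 to 0.27 for *Col6a3*, -0.23 to 2.05 for *Col8a1* and -0.20 to 1.33 for *Col8a2*. For *Col28a1* after i.v. TLZ they ranged from -3.68 to 0.73. Between the treatments they ranged from -0.21 to 0.23 for *Col5a1*, -0.61 to 0.17 for *Col5a3* and -0.36 to 0.059 for *Col6a2*. In the same comparison *Col6a1* kept its sign but ranged from -0.59 to -0.055. For both treatments against saline, a fit to the groups compared is the fit to all 9 tumors and gave no separate value. *Col28a1* had too few counts for the filter of 10 counts in every tumor. No paired analysis was possible because the labels give no replicate numbers and the numbers used here only name tumors. There were 3 tumors per group, edgeR's biological coefficient of variation was 49.8%, and genes of few counts such as *Col24a1* have wide intervals. For genes and lists outside the family, and for the collagen classes, only the values without saline tumor 3, added after seeing the data, were compared.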
